A study of Mus musculus with 8 samples.

Results

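The 10 genes described here encode the D cyclins (Ccnd1, Ccnd2, Ccnd3), the kinases they activate (Cdk4, Cdk6), inhibitors of the INK4 class (Cdkn2a, Cdkn2b, Cdkn2c), the KIP-class protein p27 (Cdkn1b) and the retinoblastoma protein (Rb1). They were taken by gene symbol from a table of 55304 genes, and all 10 were among the 17440 genes that passed the filter on low counts. By their labels, the cells were freshly prepared from mouse kidneys by binding to Dolichos biflorus lectin (DBA), a reagent for enriching the collecting duct. The extraction protocol in the labels also mentions whole kidney. Donor mice were either wild type (WT) or had autosomal dominant polycystic kidney disease (ADPKD), and the labels do not name the altered gene or the promoter behind any alteration. Mice of both genotypes were given DMSO as vehicle or the CREB inhibitor 666-15, where CREB is a transcription factor that responds to cyclic AMP. The dose was 5 mg/kg once a day for 5 days in a row with 2 days of rest, from postnatal day 11 for 3 weeks. Each of the 4 groups had 2 libraries, with 15108793 to 19702638 counts per library. Whether both libraries of a group are from different mice is not stated in the labels, so p-values measure the spread between these libraries, which may be technical (the WT 666-15 libraries differ in sex, as given below).

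In the G1 phase of the cell cycle, growth signals raise the D cyclins, which bind and activate CDK4 and CDK6. These kinases phosphorylate the retinoblastoma protein, which then releases E2F factors, and E2F factors drive the genes of DNA replication. INK4 proteins bind CDK4 and CDK6 directly and keep the D cyclins away, while p27 acts mainly on cyclin-CDK complexes that contain CDK2. Cystic kidney disease is marked by proliferation of tubule epithelium, and CDK inhibitors have been studied in its rodent models.

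The preparation was checked against markers of its labelled cell type. Markers of collecting duct principal cells were present in every library, with 0.109% to 0.148% of counts in WT vehicle libraries and 0.602% to 0.609% in WT 666-15 libraries. In ADPKD libraries they held 0.152% to 0.187% with vehicle and 0.193% to 0.228% with 666-15. Markers of the proximal tubule, another nephron segment, held more than principal cell markers in WT vehicle libraries, at 1.35% to 1.59%. So did those of the thick ascending limb (0.669% to 0.678%) and the distal convoluted tubule (0.24% to 0.259%). Endothelial markers held 0.128% to 0.149% there, and those of intercalated cells, podocytes, macrophages and stroma less than principal cell markers. Proximal tubule markers held 0.542% to 0.593% in WT 666-15 libraries, 0.00456% to 0.00601% in ADPKD vehicle libraries and 0.0364% to 0.0381% in ADPKD 666-15 libraries. Markers of the endothelium fell in the ADPKD cells with 666-15, from 0.103% to 0.129% down to 0.0281% to 0.0363%, with 8 of 8 markers lower. Macrophage markers held 0.00809% to 0.0108% of counts in WT vehicle, 0.012% to 0.0126% in WT 666-15 and 0.0236% to 0.0289% in ADPKD vehicle libraries. Of these 8 markers, 6 were higher and 1 lower in ADPKD cells with vehicle (median log2 fold change 3.79). With 666-15 in WT cells 6 of 8 were higher (median 2.24), though their summed share rose less than that median. Stromal markers were also higher in ADPKD cells with vehicle, 6 of 8 of them (median 2.05). Markers lower there were 7 of 8 of intercalated cells, 5 of 6 of the thick ascending limb, 4 of 6 of the distal convoluted tubule (1 higher) and 5 of 5 of podocytes. The marker shares therefore moved with genotype and treatment, their part in the values below was not tested, and fewer cells of a type and less RNA per cell cannot be told apart in bulk samples. The second library of the WT 666-15 group was female, with 17688 counts of Xist and 0 of 4 Y-linked genes, and the other 7 were male.

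Most of the 10 genes were called in some comparison of genotype or 666-15, as were large shares of all genes tested. Such calls are therefore not particular to these genes. Levels are given as CPM, read counts scaled to library size with TMM factors, and a gene was called at an adjusted p below 0.05 in edgeR's quasi-likelihood test with Benjamini-Hochberg adjustment over all genes tested. Between ADPKD and WT cells with vehicle, 3 genes were higher and 4 lower, against 28.8% and 27.6% of all genes tested. With 666-15, 3 were higher and 2 lower in ADPKD cells, against 22.3% and 19.1% of all genes. In WT cells 666-15 raised 4 and lowered 2, against 13.9% and 11.6% of all genes. Under 666-15, 3 genes were higher in ADPKD than in WT cells and 3 were lower (21.8% and 24.5% of all genes), and treated ADPKD cells differed from untreated WT cells in 5 genes that were higher and 2 that were lower (28.6% and 26.7%). In each of these comparisons of ADPKD with WT cells, Cdkn2a is among the genes counted as higher. It passed the filter on low counts only through its ADPKD libraries, so its calls are not independent of that selection. The response to 666-15 differed between the genotypes, by the interaction term, in 2 genes with the larger value in ADPKD cells and 1 with the smaller (13.6% and 13% of all genes).

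The median log2 fold change of the 10 genes was -0.14 between genotypes with vehicle, where that of all genes tested was 0.05. With 666-15 it was 0.13 in ADPKD cells (0.02 over all genes) and 0.25 in WT cells (-0.01 over all genes). The genotype and the 666-15 comparisons share their vehicle libraries, so the values of one are not independent of those of the other. The plot of levels by library shows the spread behind each comparison, and the plot of log2 fold changes sets the comparisons beside each other.

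**Figure D1:**
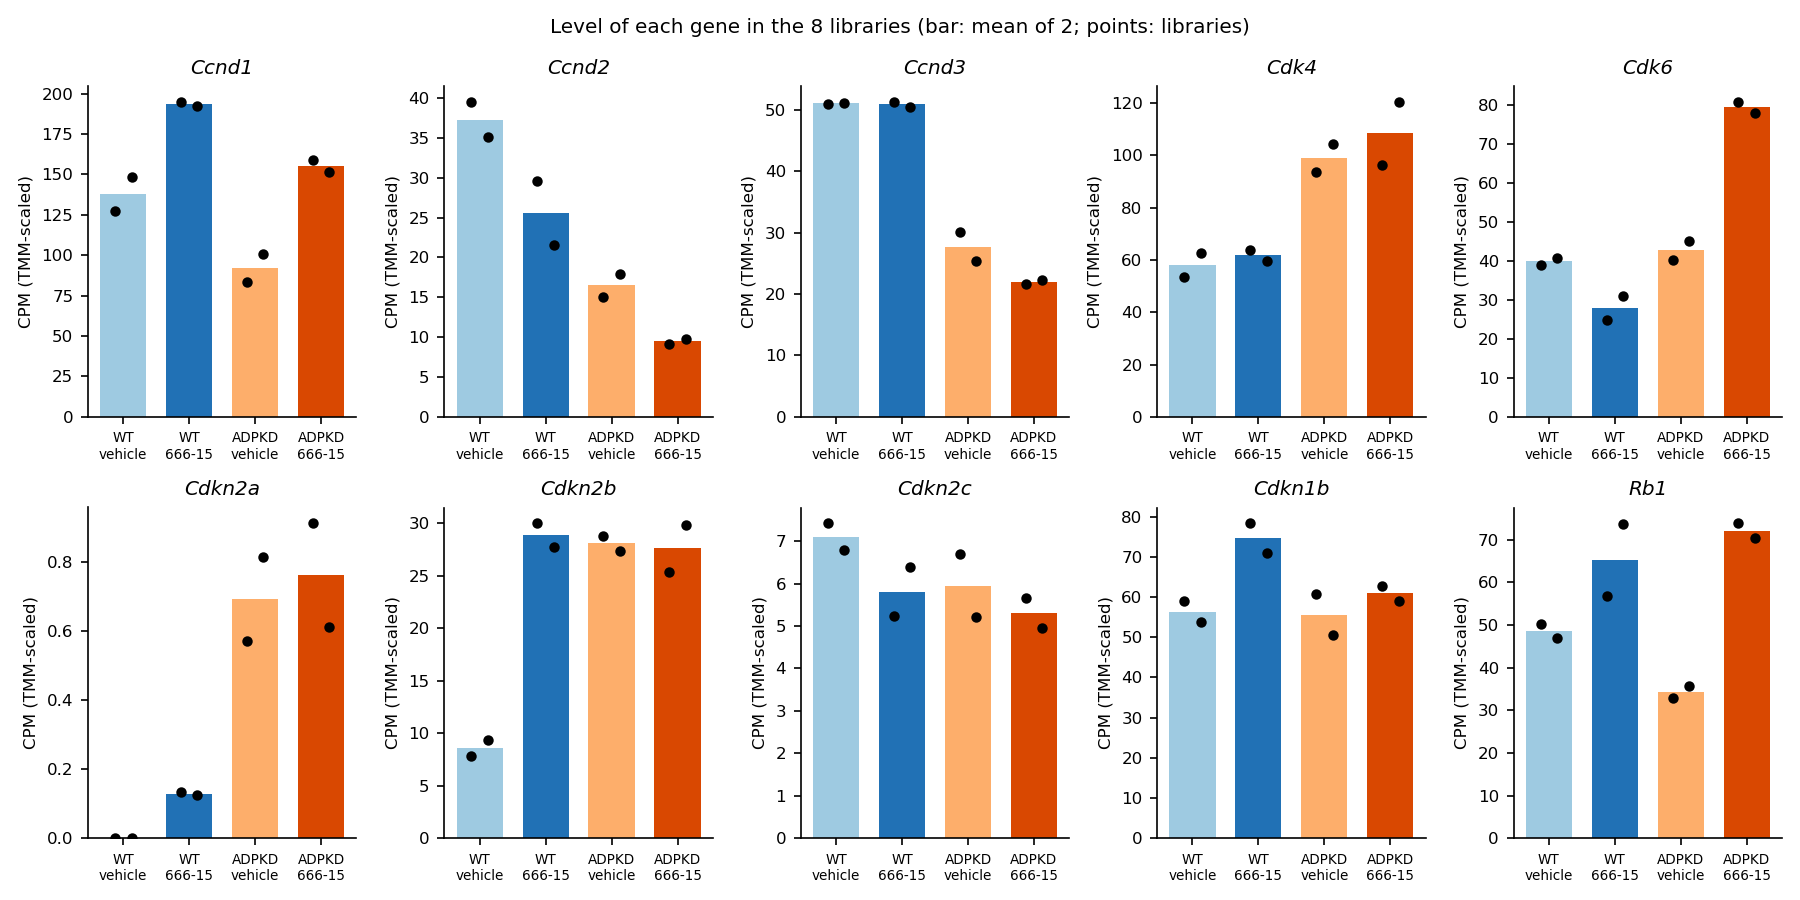
TMM-scaled CPM (linear axis from 0) of each of the 10 genes in the 4 groups, with a bar for the mean of 2 libraries and a point for each library. Ccnd2 and Ccnd3 have their lowest bars in ADPKD cells with 666-15, Cdk6 its highest, and Cdkn2b is low in the WT vehicle libraries (7.82 and 9.39 CPM) and near 28 CPM in the other groups.

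**Figure D2:**
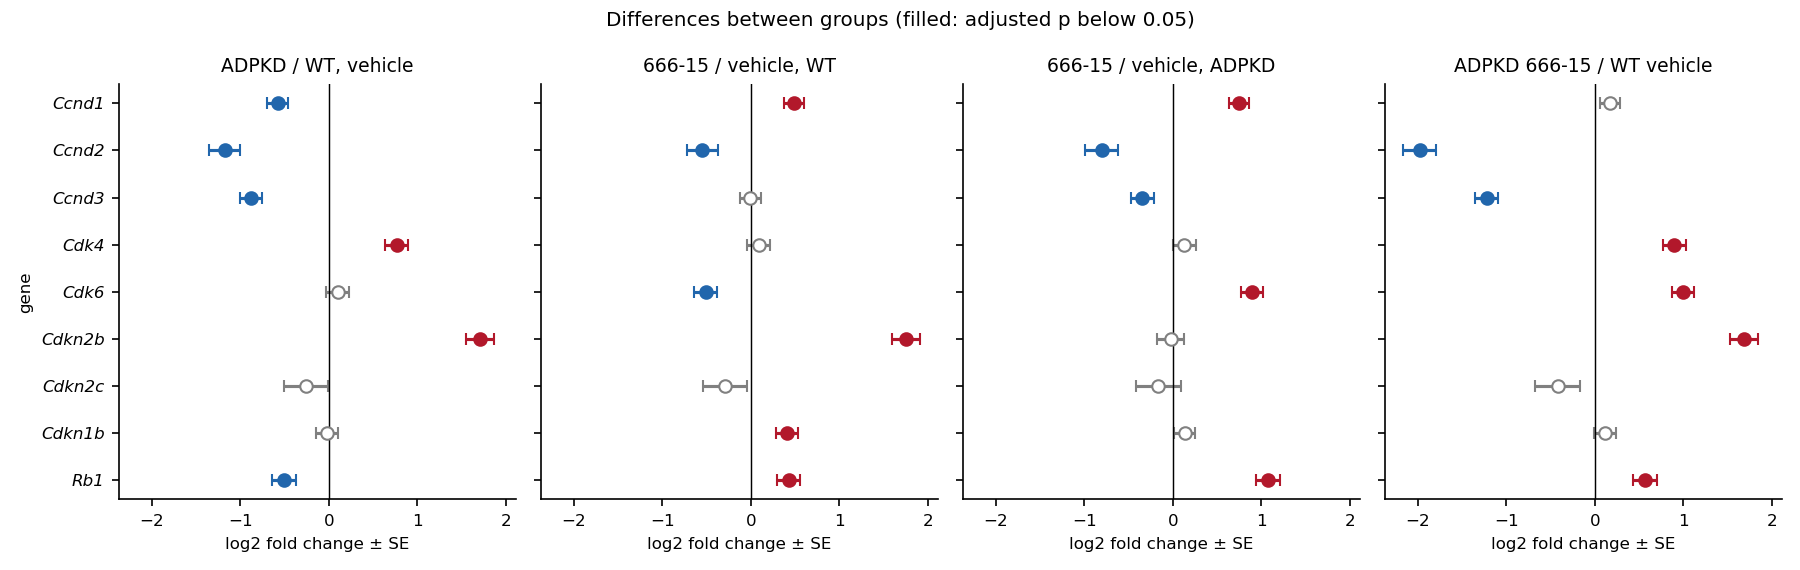
Log2 fold changes (points) with standard errors (bars) of 9 genes in 4 comparisons of 2 groups; filled points passed an adjusted p of 0.05, in red for higher and blue for lower. Cdkn2a is left out because its WT vehicle libraries held 0 counts; Cdkn2b stands at 1.71 between genotypes and at 1.75 with 666-15 in WT cells, and at -0.03 with 666-15 in ADPKD cells.

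The 3 D cyclins were all lower in ADPKD than in WT cells with vehicle. With 666-15, Ccnd1 rose in both genotypes, while Ccnd2 fell in both and reached its lowest level in treated ADPKD cells. Ccnd3 was nearly level across the WT libraries and low in both ADPKD groups.

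Ccnd1 (chromosome 7, 144929931 to 144939925, minus strand, in GRCm38) encodes cyclin D1, the D cyclin most often linked to growth factor signals in epithelia. It was at 127 and 149 CPM in WT vehicle libraries, 195 and 192 CPM in WT 666-15 libraries, 83.7 and 101 CPM in ADPKD vehicle libraries and 159 and 151 CPM in ADPKD 666-15 libraries. The groups did not overlap, with untreated ADPKD cells lowest and treated WT cells highest. Ccnd1 was 1.49-fold lower in ADPKD than in WT cells with vehicle (log2 fold change -0.58 ± 0.11 SE, adjusted p = 7.56e-04). In ADPKD cells 666-15 raised it 1.68-fold (0.75 ± 0.11, adjusted p = 2.43e-04), to a level that did not pass a test against untreated WT cells (0.17 ± 0.11, adjusted p = 0.224). The rise in WT cells was 0.49 ± 0.11 (adjusted p = 0.00637), and it did not pass without WT vehicle replicate 1 (0.38, adjusted p = 0.116). Under 666-15 the difference between genotypes was -0.32 ± 0.11 (adjusted p = 0.0338), and it did not pass with any of the 4 libraries compared left out (-0.35 to -0.29, adjusted p = 0.0644 to 0.176) or with the GC trend removed (-0.19, adjusted p = 0.174). The 2 responses to 666-15 did not differ detectably (interaction 0.26 ± 0.16, adjusted p = 0.259).

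Ccnd2 (chromosome 6, 127125162 to 127152193, minus strand) encodes cyclin D2. Its levels were 39.5 and 35.1 CPM in WT vehicle, 29.6 and 21.6 CPM in WT 666-15, 15.1 and 18.0 CPM in ADPKD vehicle and 9.18 and 9.77 CPM in ADPKD 666-15 libraries. The 4 groups stood in that order without overlap. Ccnd2 was 2.26-fold lower in ADPKD cells with vehicle (-1.18 ± 0.17, adjusted p = 7.66e-05) and fell a further 1.74-fold with 666-15 (-0.80 ± 0.18, adjusted p = 0.00397). Treated ADPKD cells were thus 3.94-fold below untreated WT cells (-1.98 ± 0.18, adjusted p = 1.25e-06), and 2.70-fold below treated WT cells (-1.43 ± 0.18, adjusted p = 4.11e-05). The fall in WT cells (-0.55 ± 0.17, adjusted p = 0.0327) was close to the threshold. It was -0.34 (adjusted p = 0.205) without WT 666-15 replicate 2, and it did not pass without either WT vehicle library or either ADPKD 666-15 library (the ADPKD libraries enter here only through the shared fit), at -0.64 to -0.46 (adjusted p = 0.0546 to 0.231). The interaction was -0.26 ± 0.25 (adjusted p = 0.496).

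Ccnd3 (chromosome 17, 47505051 to 47599691, plus strand) encodes cyclin D3, known for its role in lymphocytes. WT libraries held 50.9 and 51.1 CPM with vehicle and 51.3 and 50.5 CPM with 666-15, while ADPKD libraries held 30.0 and 25.4 CPM with vehicle and 21.5 and 22.2 CPM with 666-15. The WT groups overlapped each other and both ADPKD groups lay below them. The gene was 1.84-fold lower in ADPKD cells with vehicle (-0.88 ± 0.12, adjusted p = 5.3e-05) and 2.33-fold lower under 666-15 (-1.22 ± 0.13, adjusted p = 7.7e-06). In ADPKD cells the difference with 666-15 was -0.34 ± 0.13 (adjusted p = 0.0477). It did not pass without either WT vehicle library, WT 666-15 replicate 2, ADPKD vehicle replicate 1 or either ADPKD 666-15 library (-0.35 to -0.21, adjusted p = 0.0521 to 0.302), and removing the GC trend brought it to 0.0012. In WT cells it was at -0.0039 ± 0.12 (adjusted p = 0.987).

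Levels of different genes were compared per kilobase of merged exons. The shares and sums depend on the length used, which the SDs below do not cover. Merged exons span 4709 bases in Ccnd1, 9409 in Ccnd2 and 8775 in Ccnd3, where the longest transcripts have 3740, 6330 and 3858 bases. Ccnd1 held most of the summed D-cyclin level, with 74.9% ± 2.7 (SD, n = 2) in WT vehicle, 82.9% ± 0.96 in WT 666-15, 79.8% ± 2.7 in ADPKD vehicle and 90.4% ± 0.54 in ADPKD 666-15 cells. The share of Ccnd2 was 10.2% ± 1.6 in untreated WT cells and 2.77% ± 0.20 in treated ADPKD cells, and that of Ccnd3 14.9% ± 1.1 and 6.84% ± 0.34. The summed level was 39.1 ± 2.9 CPM per kb in WT vehicle cells, 49.6 ± 1.1 in WT 666-15, 24.5 ± 2.4 in ADPKD vehicle and 36.4 ± 1.0 in ADPKD 666-15 cells. Ccnd1 set most of that sum, so the sum rose with 666-15 although Ccnd2 went down. The plot of summed levels per family shows these shares in each library.

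**Figure D3:**
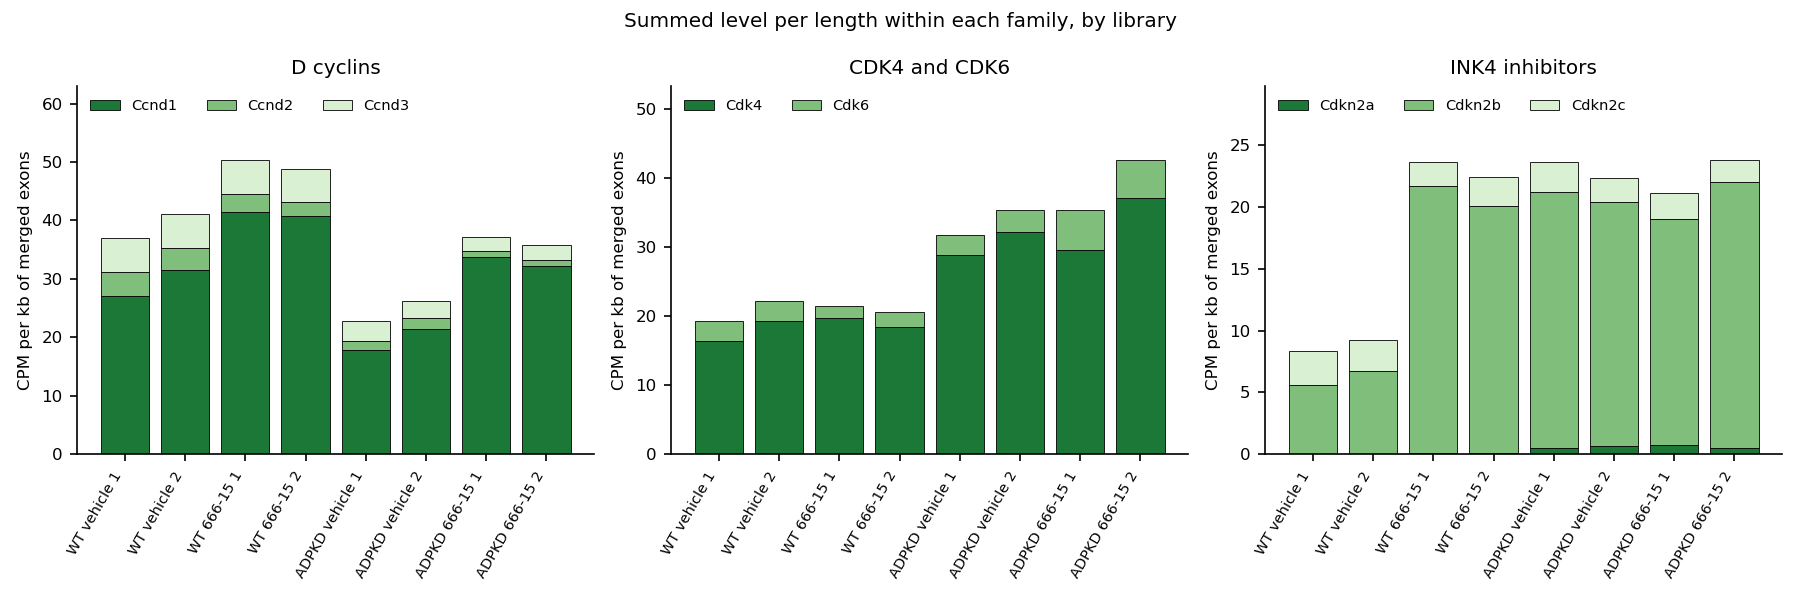
Summed level per length (CPM per kb of merged exons, linear axis from 0) of the D cyclins, of Cdk4 and Cdk6 and of the INK4 genes in each of the 8 libraries, with stacked segments for the genes. Ccnd1 and Cdk4 form most of their columns in every library, and the INK4 column is 8.84 ± 0.63 (SD, n = 2) in WT vehicle cells and 22.5 to 23.1 on average in the other 3 groups.

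The kinase genes behaved differently from each other. Cdk4 followed the genotype and showed no detectable response to 666-15, whereas Cdk6 was alike in the untreated genotypes and moved in opposite directions with 666-15. Their promoter sequences are shown because both hold the core letters of the cyclic AMP response element (CRE, bound by CREB family factors) and yet the genes differed in response. The RefSeq windows of GRCm38.p6 run from 250 bases before to 50 bases after the annotated start, at chr10:127063285-127063584 (plus strand) for Cdk4 and chr5:3343643-3343942 (plus strand) for Cdk6, and capitals mark the core TGACG or its reverse complement CGTCA.
Cdk4: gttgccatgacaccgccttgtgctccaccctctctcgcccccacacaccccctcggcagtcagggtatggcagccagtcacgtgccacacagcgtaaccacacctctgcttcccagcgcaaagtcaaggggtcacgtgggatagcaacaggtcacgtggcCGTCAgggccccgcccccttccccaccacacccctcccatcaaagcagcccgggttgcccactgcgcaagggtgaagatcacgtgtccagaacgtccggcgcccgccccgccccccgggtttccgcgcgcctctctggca
Cdk6: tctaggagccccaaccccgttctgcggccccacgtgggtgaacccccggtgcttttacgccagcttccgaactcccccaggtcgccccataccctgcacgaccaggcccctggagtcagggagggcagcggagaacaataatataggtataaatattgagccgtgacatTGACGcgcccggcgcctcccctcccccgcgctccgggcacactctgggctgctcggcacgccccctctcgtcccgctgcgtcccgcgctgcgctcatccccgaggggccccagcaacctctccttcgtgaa
The core lies 90 bases before the start in Cdk4 and 81 bases before it in Cdk6. It was found on either strand in 20.8% of the 32851 promoter windows of the table, so a match describes the letters and is neither a bound site nor a cause.

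Cdk4 (chromosome 10, 127063534 to 127067920, plus strand) encodes the kinase partner of D cyclins in most epithelia. WT libraries were at 53.5 and 62.8 CPM with vehicle and 63.9 and 59.7 CPM with 666-15, and ADPKD libraries at 93.6 and 104 CPM with vehicle and 96.3 and 121 CPM with 666-15. Every ADPKD library lay above every WT library, and the treated and untreated libraries of each genotype overlapped. Cdk4 was 1.70-fold higher in ADPKD cells with vehicle (0.77 ± 0.13, adjusted p = 2.17e-04) and 1.75-fold higher under 666-15 (0.81 ± 0.13, adjusted p = 2.3e-04). The differences with 666-15 were 0.13 ± 0.13 in ADPKD cells (adjusted p = 0.438) and 0.089 ± 0.13 in WT cells (adjusted p = 0.665), and the sign turned in ADPKD cells without ADPKD 666-15 replicate 2 and in WT cells without WT vehicle replicate 1. Tspan31 on the other strand shares 641 exon bases with Cdk4, and the strandedness of the counting is not known. Its mean level moved the other way, from 44.7 CPM in WT vehicle to 28.9 CPM in ADPKD vehicle cells.

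Cdk6 (chromosome 5, 3341485 to 3531008, plus strand) encodes the second of these kinases, best known in blood cells. It was at 39.0 and 40.8 CPM in WT vehicle, 25.0 and 31.1 CPM in WT 666-15, 40.4 and 45.2 CPM in ADPKD vehicle and 80.9 and 78.1 CPM in ADPKD 666-15 libraries. The untreated groups overlapped, treated WT libraries lay below them and treated ADPKD libraries far above. With vehicle the genotypes did not differ detectably (0.10 ± 0.13, adjusted p = 0.53). In ADPKD cells 666-15 raised Cdk6 1.86-fold (0.89 ± 0.13, adjusted p = 1.57e-04), a value that was 0.61 or more under every alternative tried. In WT cells it was 1.42-fold lower with 666-15 (-0.51 ± 0.13, adjusted p = 0.0123). That call was lost without WT vehicle replicate 1, WT vehicle replicate 2 or WT 666-15 replicate 1 (-0.54 to -0.36, adjusted p = 0.0522 to 0.0784), and it was -0.68 (adjusted p = 0.00335) without the female library. The interaction passed, at 1.40 ± 0.18 (adjusted p = 1.68e-04), and under 666-15 Cdk6 was 2.84-fold higher in ADPKD than in WT cells (1.5 ± 0.13, adjusted p = 1.66e-06). Markers of other cell types moved in the same comparisons. With 666-15 in ADPKD cells, where Cdk6 rose, 9 of 10 proximal tubule, 6 of 8 intercalated cell and 4 of 6 distal convoluted tubule markers were higher. So were 3 of 6 of the thick ascending limb, while 8 of 8 endothelial, 4 of 8 stromal and 2 of 5 podocyte markers were lower. Of all genes tested, 22.3% were higher and 19.1% lower. In WT cells, where Cdk6 fell, 8 of 10 proximal tubule, 4 of 6 thick ascending limb and 3 of 6 distal convoluted tubule markers were lower and 5 of 8 intercalated cell markers higher. There 1 of 8 endothelial and 1 of 8 stromal markers were lower and 1 of 5 podocyte markers higher, against 11.6% lower and 13.9% higher over all genes. Principal cell markers were mostly higher with 666-15 in both genotypes, 9 of 9 tested in WT cells and 5 of 9 (1 lower) in ADPKD cells. Of 8 macrophage markers, 6 were higher in WT cells, and 1 was higher and 1 lower in ADPKD cells. The part of these marker shifts in the change of Cdk6 was not tested.

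Per kilobase, Cdk6 was the minor kinase transcript in every group, with 13.8% ± 0.99 (SD, n = 2) of the summed level in WT vehicle, 9.55% ± 1.7 in WT 666-15, 9.12% ± 0.032 in ADPKD vehicle and 14.7% ± 2.3 in ADPKD 666-15 cells. The summed level of Cdk4 and Cdk6 was 20.7 ± 2.1 and 21.0 ± 0.60 CPM per kb in the WT groups and 33.5 ± 2.6 and 39.0 ± 5.1 CPM per kb in the ADPKD groups, untreated first.

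Among the INK4 genes, Cdkn2b was low in untreated WT cells and about 3-fold higher in the other 3 groups. Cdkn2a was at 0 counts in untreated WT cells and low in ADPKD cells, and Cdkn2c passed no test. The promoter windows of the 2 neighbouring loci on chromosome 4 are shown because they differ in the motifs they hold. They lie on the minus strand at chr4:89310983-89311282 (Cdkn2b), chr4:89294570-89294869 (the upstream start of Cdkn2a) and chr4:89282143-89282442 (its downstream start). Capitals mark the full CRE TGACGTCA in Cdkn2b and an E2F site in the first Cdkn2a window.
Cdkn2b: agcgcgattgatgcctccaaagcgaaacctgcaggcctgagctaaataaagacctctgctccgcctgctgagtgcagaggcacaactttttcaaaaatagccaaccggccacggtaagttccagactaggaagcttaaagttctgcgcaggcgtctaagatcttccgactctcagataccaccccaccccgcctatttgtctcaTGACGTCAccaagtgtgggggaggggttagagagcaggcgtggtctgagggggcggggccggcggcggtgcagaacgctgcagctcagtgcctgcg
Cdkn2a, upstream start: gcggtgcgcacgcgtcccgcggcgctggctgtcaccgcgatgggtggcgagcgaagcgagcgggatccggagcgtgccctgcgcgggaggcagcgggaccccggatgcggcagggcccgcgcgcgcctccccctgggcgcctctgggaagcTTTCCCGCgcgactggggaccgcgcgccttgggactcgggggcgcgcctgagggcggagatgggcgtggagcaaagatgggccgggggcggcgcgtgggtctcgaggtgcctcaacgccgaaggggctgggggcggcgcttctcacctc
Cdkn2a, downstream start: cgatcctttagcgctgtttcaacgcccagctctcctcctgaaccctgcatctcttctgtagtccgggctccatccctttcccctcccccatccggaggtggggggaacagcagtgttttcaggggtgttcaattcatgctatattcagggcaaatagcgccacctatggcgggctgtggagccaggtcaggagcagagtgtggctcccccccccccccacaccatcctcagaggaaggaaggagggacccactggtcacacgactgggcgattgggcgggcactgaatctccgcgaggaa
The full CRE of Cdkn2b begins 46 bases before the start, and its letters contain the core on both strands. Full sites were found in 1.79% of all windows, and Cdkn2b was the 1 gene of the 7 with a window that had one. The E2F search used TTTCCCGC, TTTCGCGC, TTTGCCGC and TTTGGCGC on both strands, which occurred in 2.26% of all windows. Among these 7 genes it matched in the upstream Cdkn2a window, 99 bases before the start. The downstream Cdkn2a window and both windows of Cdkn2c held none of these letters, and Ccnd3 (2 windows) and Cdkn1b held the CRE core. The plot of motif positions sets the 10 windows under each other.

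**Figure D4:**
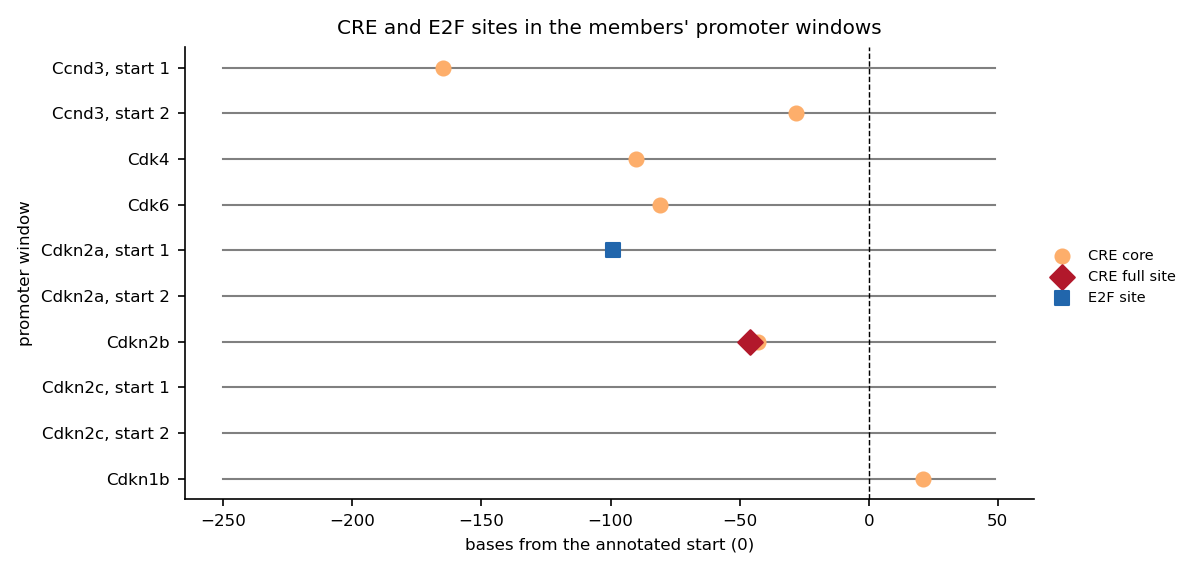
Positions of the CRE core TGACG (orange), CRE full site (red) and E2F site (blue) in the 10 promoter windows of 7 genes, in bases from the annotated start (0, dashed line). Cdkn2b holds the full CRE at -46, 5 windows hold the core outside a full site, and the upstream Cdkn2a window holds the E2F site at -99.

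Cdkn2b (chromosome 4, 89306299 to 89311039, minus strand) encodes p15INK4b, an inhibitor that TGF-beta is known to induce in epithelial cells. It was at 7.82 and 9.39 CPM in WT vehicle, 30.0 and 27.8 CPM in WT 666-15, 28.8 and 27.4 CPM in ADPKD vehicle and 25.4 and 29.9 CPM in ADPKD 666-15 libraries. The 2 untreated WT libraries stood apart below the other 6, whose groups overlapped. Cdkn2b was 3.27-fold higher in ADPKD than in WT cells with vehicle (1.71 ± 0.16, adjusted p = 1.15e-06). It was 3.36-fold higher in treated than in untreated WT cells (1.75 ± 0.16, adjusted p = 7.11e-06), and 1.80 (adjusted p = 1.06e-05) without the female library. In ADPKD cells its difference with 666-15 was -0.025 ± 0.15 (adjusted p = 0.911), a sign that turned under 5 of 16 alternatives, and the interaction was -1.77 ± 0.22 (adjusted p = 1.13e-04). Under 666-15 the genotypes did not differ detectably (-0.065 ± 0.15, adjusted p = 0.75). Proximal tubule markers had their highest share in the WT vehicle libraries, where Cdkn2b was lowest, and principal cell markers rose with it in treated WT cells, with 9 of 9 tested markers higher. Of 8 macrophage markers, 6 were higher and 1 lower in untreated ADPKD than in untreated WT cells, and 6 were higher with 666-15 in WT cells. Between the genotypes under 666-15, where Cdkn2b did not differ detectably, markers differed as well. In ADPKD cells 6 of 8 macrophage markers were then higher and 1 lower, and 7 of 9 tested principal cell markers were lower. The part of these shifts in the level of Cdkn2b was not tested.

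Cdkn2a (chromosome 4, 89274471 to 89294653, minus strand) encodes both p16INK4a, a CDK4 and CDK6 inhibitor, and p19ARF, which stabilises p53, from different first exons. The counts per gene cannot separate them. Raw counts were 0 and 0 in WT vehicle, 2 and 2 in WT 666-15, 11 and 15 in ADPKD vehicle and 14 and 9 in ADPKD 666-15 libraries. ADPKD libraries lay above WT libraries, and the ADPKD groups overlapped. Cdkn2a passed the filter on low counts only through its ADPKD libraries, so its tests are not independent of that selection. A floor of 3 counts was set over the WT vehicle group, which covers counting error of that group only. Against it, the observed level was 8.51-fold higher in untreated and 9.43-fold higher in treated ADPKD cells. These ratios leave out the counting error of the ADPKD libraries, so they are not lower bounds. The adjusted p of 0.00188 and 0.00167 for these comparisons came from edgeR's fit without that floor and do not test these ratios. With 666-15 Cdkn2a differed by 0.14 ± 0.71 in ADPKD cells (adjusted p = 0.895), and in WT cells the test did not pass (adjusted p = 0.114). Between the genotypes under 666-15 it was at 2.49 ± 0.90 (adjusted p = 0.0387), a call lost when any one of the 8 libraries was left out (2.18 to 2.75, adjusted p = 0.0564 to 0.225).

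Cdkn2c (chromosome 4, 109660876 to 109667189, minus strand) encodes p18INK4c. It was at 7.42 and 6.79 CPM in WT vehicle, 5.23 and 6.39 CPM in WT 666-15, 6.69 and 5.21 CPM in ADPKD vehicle and 5.66 and 4.95 CPM in ADPKD 666-15 libraries. The untreated WT libraries were highest and the other 3 groups overlapped. No comparison passed, with log2 fold changes of -0.26 ± 0.25 between genotypes with vehicle (adjusted p = 0.401), -0.17 ± 0.25 with 666-15 in ADPKD cells (adjusted p = 0.636) and -0.29 ± 0.25 in WT cells (adjusted p = 0.439). Treated ADPKD cells were at -0.42 ± 0.25 against untreated WT cells, which did not pass either (adjusted p = 0.176). The libraries held only 73 to 149 counts of Cdkn2c each, and a difference of the size of these standard errors could not pass.

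Per kilobase, Cdkn2b held 69.9% ± 4.0 (SD, n = 2) of the summed INK4 level in WT vehicle cells and 87.8% to 90.1% on average in the other groups. Cdkn2a held 2.93% ± 1.1 where its share was highest, in treated ADPKD cells.

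Cdkn1b (chromosome 6, 134920401 to 134925513, plus strand) encodes p27KIP1, which is controlled to a large extent by protein turnover. It was at 58.9 and 53.7 CPM in WT vehicle, 78.3 and 71.0 CPM in WT 666-15, 60.7 and 50.5 CPM in ADPKD vehicle and 62.8 and 59.1 CPM in ADPKD 666-15 libraries. Treated WT libraries were highest, and the untreated genotypes overlapped. With vehicle the genotypes differed by -0.018 ± 0.12 (adjusted p = 0.912). The rise with 666-15 in WT cells was 0.41 ± 0.12 (adjusted p = 0.0258). It did not pass without either WT vehicle library or WT 666-15 replicate 1 (0.33 to 0.47, adjusted p = 0.0775 to 0.201), with RLE scaling (0.34, adjusted p = 0.0559) or with the GC trend removed (0.36, adjusted p = 0.0561). In ADPKD cells it was 0.13 ± 0.12 (adjusted p = 0.41), and the interaction was -0.27 ± 0.17 (adjusted p = 0.265).

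Rb1 (chromosome 14, 73183673 to 73325822, minus strand) encodes the substrate that the D-cyclin kinases are best known for. Its levels were 50.2 and 47.1 CPM in WT vehicle, 56.9 and 73.8 CPM in WT 666-15, 33.0 and 35.6 CPM in ADPKD vehicle and 73.9 and 70.3 CPM in ADPKD 666-15 libraries. Untreated ADPKD libraries were lowest and the treated groups overlapped at the top. Rb1 was 1.42-fold lower in ADPKD cells with vehicle (-0.50 ± 0.13, adjusted p = 0.00571) and rose 2.1-fold with 666-15 (1.07 ± 0.13, adjusted p = 5.58e-05). The response was 0.72 (adjusted p = 3.37e-04) with the GC trend removed. Treated ADPKD cells were above untreated WT cells by 0.57 ± 0.13 (adjusted p = 0.00254), or 0.29 (adjusted p = 0.0399) with the GC trend removed. In WT cells 666-15 gave 0.43 ± 0.13 (adjusted p = 0.0306). That call was lost without either WT vehicle library, either ADPKD 666-15 library or the female WT 666-15 library, which held the higher of the 2 values (0.22 to 0.47, adjusted p = 0.0558 to 0.26), and under RLE scaling (0.37, adjusted p = 0.0619).

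The rise of Rb1 was larger in ADPKD than in WT cells, with an interaction of 0.65 ± 0.19 (adjusted p = 0.022). It did not pass without WT vehicle replicate 1, WT 666-15 replicate 1, ADPKD vehicle replicate 1 or either ADPKD 666-15 library (0.49 to 0.70, adjusted p = 0.0519 to 0.0785), or with the GC trend removed (0.34, adjusted p = 0.141), and it was 0.87 (adjusted p = 0.00174) without the female library. Rcbtb2 and Lpar6 on the other strand share 488 and 408 exon bases with Rb1. Their mean levels were 16.0 and 17.8 CPM in ADPKD vehicle cells and 15.3 and 5.60 CPM in ADPKD 666-15 cells, so neither rose with Rb1. LTO1 shares 1100 bases with Ccnd1 and Bysl 361 with Ccnd3, at mean levels of 10.7 to 13.2 CPM and 19.4 to 26.1 CPM.

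Other genes of the pathway give the setting of these values. With 666-15, 22.3% of all genes tested were higher and 19.1% lower in ADPKD cells, and 13.9% and 11.6% in WT cells. These shares set the scale for the counts of each list below. Among 12 pocket protein and E2F genes, 2 were higher and 6 lower in ADPKD cells with vehicle (median -0.67), where 28.8% and 27.6% of all genes tested were. With 666-15, 7 rose and 1 fell there (median 0.80), against 22.3% and 19.1% of all genes, while edgeR called 0 of the 12 in WT cells (5 at an unadjusted p under 0.05, 0 called by DESeq2, and 1 by edgeR without WT 666-15 replicate 1). Rbl2, which encodes the pocket protein p130, was at 36.3 ± 8.2 CPM in WT vehicle, 39.8 ± 9.9 in WT 666-15, 11.3 ± 0.25 in ADPKD vehicle and 26.3 ± 3.2 in ADPKD 666-15 cells. It was lower in untreated ADPKD cells (-1.69 ± 0.20, adjusted p = 2.01e-05) and rose with 666-15 (1.22 ± 0.21, adjusted p = 6.19e-04), and so did E2f5, an E2F that binds p130 (-0.92 ± 0.15, adjusted p = 2.28e-04, and 1.23 ± 0.15, adjusted p = 6.42e-05). Rbl1, the gene of p107, rose with 666-15 in ADPKD cells by 1.89 ± 0.30 (adjusted p = 3.06e-04). Tfdp1, a dimer partner of E2F, was higher in untreated ADPKD cells, at 66.7 ± 8.9 against 24.8 ± 1.4 CPM (1.43 ± 0.13, adjusted p = 1e-06).

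Of 3 other CDK inhibitor genes, 2 were higher and 1 lower in untreated ADPKD cells (28.8% and 27.6% over all genes), with 1 higher without either WT vehicle library or without ADPKD vehicle replicate 1. With 666-15, 2 fell in ADPKD cells, and edgeR called 0 in WT cells (1 at an unadjusted p under 0.05, and 0 called by DESeq2), or 1 without WT 666-15 replicate 2 or either ADPKD vehicle library. Cdkn1a, which encodes p21 and is a target of p53, was at 320.5 ± 7.4 CPM in WT vehicle, 316 ± 29 in WT 666-15, 1252 ± 123 in ADPKD vehicle and 446 ± 13 in ADPKD 666-15 cells. It was 3.90-fold higher in untreated ADPKD cells (1.97 ± 0.10, adjusted p = 6.53e-09) and fell with 666-15 there (-1.49 ± 0.10, adjusted p = 9.7e-07), and the interaction was -1.47 ± 0.14 (adjusted p = 2.21e-05). Cdkn1c, the gene of p57, fell with 666-15 in ADPKD cells from 37.8 ± 10 to 5.91 ± 0.11 CPM (-2.67 ± 0.22, adjusted p = 4.37e-06). Cdkn2d, the fourth INK4 gene (p19INK4d), was 2.57-fold lower in untreated ADPKD cells (-1.36 ± 0.23, adjusted p = 2.26e-04), and its difference with 666-15 did not pass in either genotype (-0.15 ± 0.24, adjusted p = 0.669, in ADPKD and -0.031 ± 0.22, adjusted p = 0.938, in WT cells).

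Genes of DNA replication and mitosis rose with 666-15 in ADPKD cells. Of 18 E2F targets of S phase, 11 rose and 1 fell (median 0.77), against 22.3% and 19.1% of all genes, and the 1 became 0 without any one of the WT vehicle, ADPKD vehicle or ADPKD 666-15 libraries. Of 15 mitotic genes, 10 rose and 0 fell (median 1.30), with 11 at an unadjusted p under 0.05 and 9 called by DESeq2. The S-phase count was 6 without ADPKD 666-15 replicate 1, and the mitotic count was 6 without ADPKD vehicle replicate 1, without ADPKD 666-15 replicate 2, or when 2 libraries had to reach 5 CPM. In WT cells 2 S-phase genes were higher and 1 lower (median -0.09), and the 2 became 1 without WT vehicle replicate 1 or WT 666-15 replicate 2. Of all genes tested, 13.9% were higher and 11.6% lower with 666-15 in WT cells, so the 2 S-phase genes are near the share of all genes. Of the mitotic genes 1 was higher and 1 lower there (median -0.33), against the same shares. The 1 higher became 0 without either WT vehicle library, WT 666-15 replicate 2, ADPKD vehicle replicate 2 or either ADPKD 666-15 library, and by DESeq2. The 1 lower became 0 without either WT vehicle library or WT 666-15 replicate 1 and 3 without WT 666-15 replicate 2. Rrm1, a subunit of ribonucleotide reductase, went from 17.2 to 44.5 CPM in ADPKD cells (1.37 ± 0.15, adjusted p = 2.55e-05), and Mcm6, part of the replicative helicase, from 28.3 to 54.8 CPM (0.95 ± 0.17, adjusted p = 7.93e-04). Top2a, a topoisomerase of dividing cells, went from 3.41 to 23.9 CPM (2.80 ± 0.36, adjusted p = 1.83e-04), and Cdk1, the mitotic kinase, from 1.39 to 8.63 CPM (2.63 ± 0.39, adjusted p = 1.85e-04). The interaction passed for Rrm1 (1.5 ± 0.22, adjusted p = 3.4e-04) and for Top2a (3.13 ± 0.50, adjusted p = 0.0013).

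With vehicle, 7 of the 15 mitotic genes were lower in ADPKD than in WT cells and 3 higher (median -0.82), against 27.6% and 28.8% of all genes tested. The 7 became 2 without WT vehicle replicate 2, 3 without ADPKD vehicle replicate 1 and 4 without either ADPKD 666-15 library, and the 3 became 1 without ADPKD vehicle replicate 2. Of the 18 S-phase genes 3 were higher and 2 lower (median -0.10), and Pcna, the replication clamp, was among the higher ones (0.68 ± 0.093, adjusted p = 3.55e-05). The plot of shares called sets the lists beside all genes tested.

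**Figure D5:**
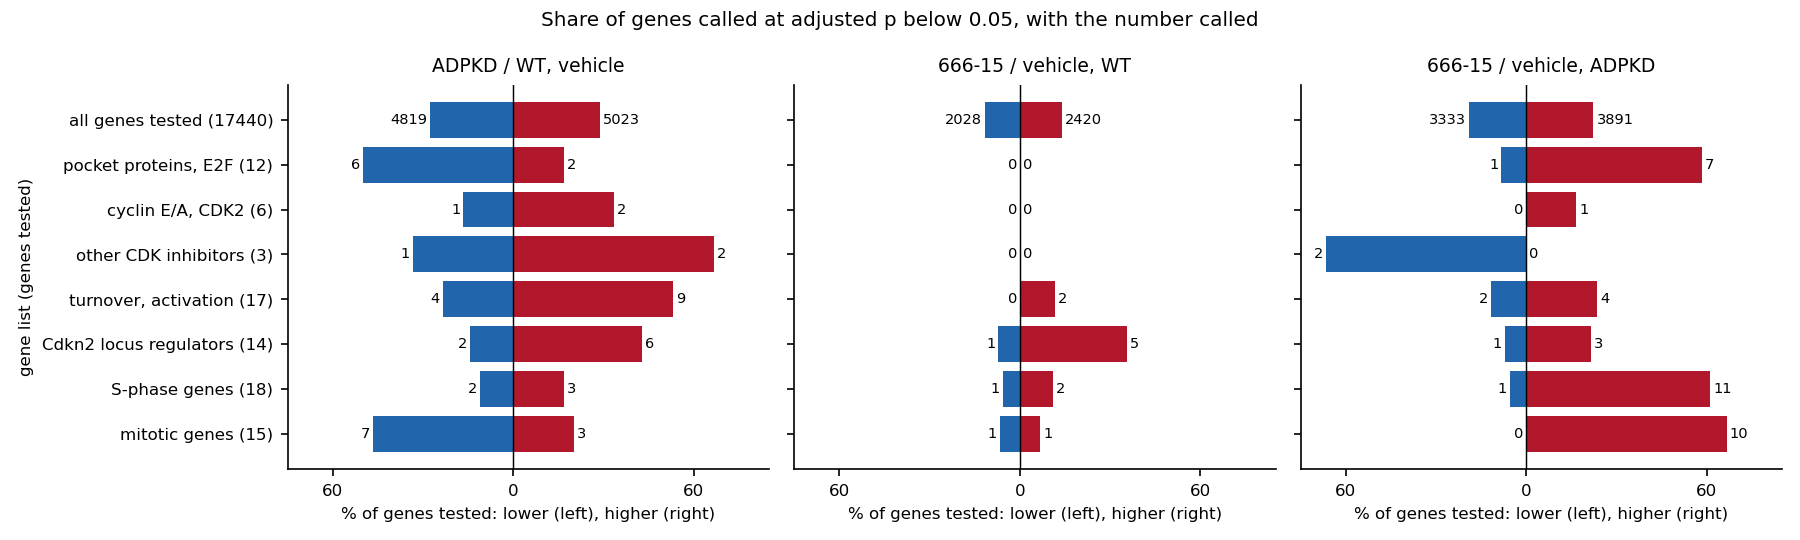
Share of each gene list called at an adjusted p below 0.05 (percent of genes tested, lower to the left in blue and higher to the right in red), with the number called beside each bar, for 3 comparisons. In ADPKD cells with 666-15 the S-phase list has 11 of 18 and the mitotic list 10 of 15 genes higher, where all genes tested have 22.3%. In WT cells they have 2 and 1, where all genes tested have 13.9%.

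Of 6 tested genes of cyclin E, cyclin A and CDK2, 2 were higher and 1 lower in untreated ADPKD cells (28.8% and 27.6% over all genes), and the 2 became 0 without either WT vehicle library and 1 without ADPKD vehicle replicate 1. With 666-15, 1 rose in ADPKD cells, and edgeR called 0 in WT cells, where 0 had an unadjusted p under 0.05 and DESeq2 called 0. Ccna2, which encodes cyclin A2, was lower in untreated ADPKD cells (-1.84 ± 0.42, adjusted p = 0.00209) and was the gene that rose with 666-15 there (2.48 ± 0.41, adjusted p = 4.63e-04). Of 17 genes for turnover and activation of D cyclins, CDKs and p27, 9 were higher and 4 lower in untreated ADPKD cells (28.8% and 27.6% over all genes tested). 666-15 raised 4 and lowered 2 in ADPKD cells (22.3% and 19.1%), a share near that of all genes for the 4, and raised 2 in WT cells (13.9%). The count of 4 was 2 without ADPKD 666-15 replicate 2, the count of 2 lower was 1 without ADPKD vehicle replicate 1 or either ADPKD 666-15 library, and the 2 in WT cells were 0 without WT vehicle replicate 1 or WT 666-15 replicate 2. Usp2, a deubiquitinase of cyclin D1, was at 65.6 CPM in WT vehicle and 12.6 CPM in ADPKD vehicle cells (-2.38 ± 0.16, adjusted p = 5.95e-08), and Cks1b, a cofactor of p27 degradation, at 1.86 and 8.73 CPM (2.25 ± 0.38, adjusted p = 2.63e-04).

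Of 14 regulators of the Cdkn2 locus and its products, 6 were higher and 2 lower in untreated ADPKD cells (28.8% and 27.6% over all genes tested), and the 2 became 0 without WT vehicle replicate 1 and 1 without ADPKD vehicle replicate 1. In ADPKD cells 3 rose with 666-15 and 1 fell (22.3% and 19.1% over all genes), so the 3 are near the share of all genes. In WT cells 5 rose and 1 fell (13.9% and 11.6%), where the 5 became 3 without WT vehicle replicate 1. The 1 that fell in WT cells became 0 without WT vehicle replicate 1 or WT 666-15 replicate 2, and 2 without WT 666-15 replicate 1. Ets2, whose product is known to activate p16, had mean levels of 515 CPM in WT vehicle, 778 in WT 666-15, 887 in ADPKD vehicle and 1621 in ADPKD 666-15 cells. It was higher in untreated ADPKD cells (0.78 ± 0.089, adjusted p = 7e-06) and rose with 666-15 in ADPKD (0.87 ± 0.089, adjusted p = 1.34e-05) and WT cells (0.59 ± 0.089, adjusted p = 3.03e-04). Cbx7 and Tbx2, known as repressors of the locus, rose with 666-15 in WT cells by 0.85 ± 0.17 (adjusted p = 0.00229) and 1.24 ± 0.18 (adjusted p = 2.98e-04). Trp53, the gene of p53, was higher in untreated ADPKD cells (0.84 ± 0.11, adjusted p = 2.6e-05).

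The genes whose pattern was most like that of each member were ranked by Pearson's r of log2 CPM over the 8 libraries, among 10777 genes with a mean of at least 5 CPM. This is a description without a test, since the libraries fall into 4 groups and many genes share any group pattern. The nearest gene was Lrrc3 for Ccnd1 (r = 0.993), Foxc1 for Ccnd2 (0.994), Vdac3 for Cdk4 (0.988) and Slmap for Cdk6 (0.997). It was St14 for Cdkn2b (0.994), Dynlt3 for Rb1 (0.993), Gt(ROSA)26Sor for Cdkn1b (0.978) and Tmem18 for Cdkn2c (0.968).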

How the data were processed

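RNA-seq of DBA-positive kidney cells was analysed in 8 libraries. The table deposited by the authors held raw counts per gene. Alignment used HISAT2 2.1.0 and mm10, counting used featureCounts 1.6.0, and DESeq2 was also run, per the submitters' processing notes. Strandedness, the annotation release and the handling of multiply mapped reads are not given in the sources used here. Column names did not give the vehicle samples in full, and the vehicle columns were matched to them by elimination. The labels' extraction protocol also speaks of whole kidney.

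Counts were fitted in R 4.3.3 with edgeR 4.0.16: filterByExpr at a minimum of 10 counts and also of 15 in total (17440 of 55304 genes), TMM scaling, and 1 robust quasi-likelihood model of all 4 groups (4 residual and a median of 8.69 prior degrees of freedom, with a common biological coefficient of variation of 0.138). Tests were two-sided, with Benjamini-Hochberg adjustment over all genes in each of 6 contrasts at 0.05. A standard error is the absolute log2 fold change divided by the square root of F. Total counts were 15108793 to 19702638 per library. Data were also simulated for the genotype comparison at these depths. There 28 of 67 genes changed 1.5-fold, 59 of 67 changed 2-fold and 66 of 66 changed 4-fold were called. False calls were 6 among 16804 genes. Only these few genes were changed, whereas the real comparison with vehicle called 28.8% of genes higher and 27.6% lower. The p-value cut-off set by the adjustment therefore differs, and the rates do not give the sensitivity of the real tests. They are not split by level, so they do not describe genes with few counts such as Cdkn2a.

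Members, gene lists and tests were chosen with earlier results of these data known, and so give no independent support. The text could name all members, up to 4 genes per list and comparison with the smallest p, and the nearest patterns, of which some are not reported here. Gene positions and exon lengths came from GENCODE M21 for GRCm38. RefSeq promoter windows of GRCm38.p6 were given for 7 of the 10 genes, 10 windows in all, and not for Ccnd1, Ccnd2 and Rb1. Near copies of at least 95% identity over 150 bases (Ccnd3-ps for Ccnd3, Gm16505 and Gm42961 for Cdk6) had mean levels of at most 2.09 CPM. Alternatives were RLE scaling, no filter, a filter of 5 CPM in 2 libraries, the replicate number as a block, the compared groups alone, DESeq2 1.42.0 and leaving out each library. Removal of a GC or transcript length trend by lowess with a span of 0.3 was added after seeing the data.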

Additional observations from a re-analysis of the deposited data

Results flagged for a closer look

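By edgeR's test of the interaction over all genes, the response to 666-15 differed between ADPKD and WT cells in 3 of the 10 genes. The value was larger in ADPKD cells in 2 and smaller in 1, against 13.6% and 13% of all genes tested. The count of 3 is thus near the share of all genes. Each difference below is the response in ADPKD minus that in WT cells on the log2 scale. Cdk6 differed by 1.40, having risen in ADPKD and fallen in WT cells. Cdkn2b differed by -1.77, since it rose in WT cells and showed no detectable change in ADPKD cells. Rb1 differed by 0.65, and it did not pass when some single libraries, named in the report, were left out.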

How the results depend on the processing

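Of 939 values of single genes under an alternative, 840 kept their direction and their side of the threshold, 60 lost a call, 4 gained one and 35 changed sign. The causes were not tested.

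With 666-15 in ADPKD cells, 1 gene instead of 2 was lower without a filter, with the 2 groups alone, with DESeq2 and with the GC trend removed, and 1 to 2 when single libraries were left out. In WT cells, 2 instead of 4 were higher with RLE scaling, the 5 CPM filter, DESeq2 and the length trend removed, and 1 to 4 with a library left out; 1 instead of 2 was lower with the 2 groups alone, and 0 to 2 with a library left out. In the interaction 1 instead of 2 was higher with the GC trend removed, and 1 to 2 with a library left out. With a library left out, the genes called ranged from 4783 to 7817 for 666-15 in ADPKD cells, from 2402 to 4707 in WT cells and from 3037 to 5075 for the interaction.

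No shared shift by replicate number was seen: differences between the 2 replicates correlated at -0.0371 to 0.0806 between groups over 11199 genes. Such correlations cannot exclude a pairing of the libraries, and the WT 666-15 replicates also differ in sex. With the replicate block, 1 gene instead of 2 was lower with 666-15 in ADPKD cells, since Ccnd3 was at -0.34 (adjusted p = 0.0567). Between the genotypes under 666-15 the block gave 2 higher and 4 lower instead of 3 and 3, since Cdkn2a was at 2.49 (adjusted p = 0.058) and Cdkn1b at -0.291 (adjusted p = 0.0427, against 0.0656 without the block). Between the genotypes with vehicle the block gave 3 higher and 4 lower, as without it, and 9782 genes called.

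Sign changes were in differences that had not passed, except Ccnd3 with 666-15 in ADPKD cells, at 0.00117 with the GC trend removed. With that trend removed, Cdkn1b was at 0.0729 between genotypes with vehicle, -0.172 with 666-15 in ADPKD cells and -0.0995 in treated ADPKD against untreated WT cells. Cdkn2b was then at 0.274 with 666-15 in ADPKD cells and 0.202 between genotypes under 666-15, Cdkn2c at 0.248 and 0.155, Rb1 at -0.09 between genotypes under 666-15, and the Ccnd3 interaction at 0.0694. With the length trend removed, Cdkn2b was at 0.166 and 0.184, Cdkn2c at 0.0223 between genotypes under 666-15, and Cdkn1b at -0.00805 in treated ADPKD against untreated WT cells. Without a filter Cdkn2b was at 0.00549 with 666-15 in ADPKD cells, and with the 5 CPM filter Cdk4 at -0.0144 with 666-15 in WT cells.

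With a library left out, the log2 fold changes that crossed 0 ranged between genotypes with vehicle from -0.00492 to 0.174 for Cdk6 and from -0.165 to 0.0873 for Cdkn1b. With 666-15 in ADPKD cells the ranges were -0.0279 to 0.3 for Cdk4, -0.162 to 0.43 for Cdkn2a, -0.135 to 0.105 for Cdkn2b and -0.316 to 0.0309 for Cdkn2c. In WT cells they were -0.0175 to 0.00319 for Ccnd3 and -0.0271 to 0.202 for Cdk4. Under 666-15 the genotypes differed by -0.189 to 0.0512 for Cdkn2b, -0.268 to 0.0314 for Cdkn2c and -0.0341 to 0.351 for Rb1. The interaction ranged from -0.442 to 0.00493 for Ccnd2, from -0.114 to 0.214 for Cdk4 and from -0.0209 to 0.325 for Cdkn2c. Low counts limit Cdkn2a, with at most 15 per library.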
